A study of Mus musculus with 4 samples.

Results

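Penk, Bace2, Ccl1, Il1r2, Igfbp7 and Gpm6b are 6 of the 13518 genes measured in single cells from mouse MC38 colon tumours, and they were followed here across 4 treatment arms and across T cells gated by Cd4, Foxp3, Cd8a and Cd8b1. The genes were chosen by their values in these same libraries, namely high levels in CD4 T cells and detection together in single cells of the anti-PD-1 library. Their levels by gate and arm, and their joint detection, are therefore descriptions and carry no test. What the rule did not use is the rest of the transcriptome of the cells that held them.

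The arms were anti-PD-1, given 3 times a week for 5 doses, ATT-I, given daily at 50 mg/kg, the combination of both, and vehicle. ATT-I is atractylenolide I, a sesquiterpene lactone of Atractylodes rhizomes, and anti-PD-1 is an antibody that blocks a T cell checkpoint receptor. All tumours grew from MC38 colon carcinoma cells placed orthotopically in C57BL/6 mice and were taken 2 weeks after the first treatment. In each arm 5 tumours were pooled into 1 library, so the arms have no replicates, no test between them was possible, and every difference given below is between libraries. The vehicle library is labelled as untreated in one field and as the vehicle arm in the protocol.

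Penk encodes preproenkephalin, the precursor that proteases cut into the opioid peptides Met-enkephalin and Leu-enkephalin. It is best known from the striatum and the adrenal medulla, and is also transcribed by activated and regulatory T cells. Ccl1 encodes a chemokine that activated T cells secrete and that acts on the receptor Ccr8. Il1r2 encodes a decoy receptor that binds interleukin-1 without passing on a signal, Igfbp7 a secreted protein that binds insulin-like growth factors and insulin, Gpm6b a membrane protein of the proteolipid family known from neurons and oligodendrocytes, and Bace2 a membrane aspartyl protease related to the beta-secretase Bace1.

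The 6 genes lie on 6 chromosomes of the GRCm38 (mm10) build in the GENCODE M21 annotation. Penk is at chr4:4133531-4138819 on the minus strand, Ccl1 at chr11:82176657-82305690 on the minus strand, Il1r2 at chr1:40074079-40125231 on the plus strand, Igfbp7 at chr5:77349240-77408041 on the minus strand, Gpm6b at chrX:166238911-166388988 on the plus strand and Bace2 at chr16:97356742-97442936 on the plus strand. The Penk message is shown because its repeats are what make it a peptide precursor. The 807 coding bases of transcript Penk-201 hold 7 enkephalin units, 6 of Met-enkephalin and 1 of Leu-enkephalin. Bases 223 to 420 of that coding sequence, which lie in 1 exon at chr4:4134226-4134423 and are written on the minus strand from 5′ to 3′, hold 3 of the Met-enkephalin units, in capitals.
Penk coding stretch: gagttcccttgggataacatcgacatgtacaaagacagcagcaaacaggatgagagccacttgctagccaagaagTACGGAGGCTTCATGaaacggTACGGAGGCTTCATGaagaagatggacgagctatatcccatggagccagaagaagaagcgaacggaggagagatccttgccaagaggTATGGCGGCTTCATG

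A promoter, taken from 250 bases before to 50 bases after the gene's start as a RefSeq (GRCm38.p6) table of promoters places it, was found for 4 of the 6 genes, Ccl1, Il1r2, Igfbp7 and Gpm6b. For Ccl1, Il1r2 and Gpm6b that start lies inside the GENCODE gene given above, which begins further upstream. For Ccl1 it is also where the protein-coding GENCODE transcripts begin. These windows were searched on both strands for GGAAA, the core that NFAT factors bind, for TGANTCA, the AP-1 site, and for TGACGTCA, the cyclic AMP response element. Both factor families, NFAT and AP-1, are known from T cell receptor signalling. The Ccl1 window held 3 copies of GGAAA or its reverse and the Gpm6b window held 2, against a share of 61.3% of all 32851 promoters of that length with at least 1. TGACGTCA was present in the Gpm6b window and in 1.79% of all promoters. No window of the 4 held TGANTCA, which 7.81% of all promoters did. The windows of Il1r2 and Igfbp7 held none of the 3 motifs. The promoters of Ccl1 (chr11:82179763-82180062, minus strand, GGAAA or its reverse in capitals) and Gpm6b (chrX:166238693-166238992, plus strand, TGACGTCA in capitals) read as follows.
Ccl1 promoter: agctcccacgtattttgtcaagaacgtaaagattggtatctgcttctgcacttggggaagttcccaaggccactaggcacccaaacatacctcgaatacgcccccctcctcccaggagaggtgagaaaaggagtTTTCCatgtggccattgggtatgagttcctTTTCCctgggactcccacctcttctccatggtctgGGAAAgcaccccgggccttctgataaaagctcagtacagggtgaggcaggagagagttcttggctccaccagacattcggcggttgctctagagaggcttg
Gpm6b promoter: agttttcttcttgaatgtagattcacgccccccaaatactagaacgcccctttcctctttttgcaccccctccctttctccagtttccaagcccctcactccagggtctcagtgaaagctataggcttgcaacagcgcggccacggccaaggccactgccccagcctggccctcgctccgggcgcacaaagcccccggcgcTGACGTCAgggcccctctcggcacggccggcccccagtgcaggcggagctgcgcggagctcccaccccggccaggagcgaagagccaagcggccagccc

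The libraries held 12562 cells in the anti-PD-1 arm, 297 in the ATT-I arm, 199 in the combination arm and 155 in the vehicle arm. A UMI (unique molecular identifier) marks 1 captured RNA molecule, and a cell's median depth was 7148, 6828, 23927 and 16129 UMIs in the same order of arms. A gene's level is its UMIs per 10000 UMIs of the cell, averaged over the cells of a gate, with an exact 95% Poisson interval from the number of UMIs, and a share of cells has an exact 95% Clopper-Pearson interval. Since UMIs count molecules, levels were not scaled by gene length. Both intervals cover counting error only, and cells of 1 library are not replicates. A cell was CD4-gated with at least 1 Cd4 UMI and more Cd4 than Cd8a plus Cd8b1 UMIs, and CD8-gated with at least 2 Cd8a plus Cd8b1 UMIs and more of those than of Cd4. CD4-gated cells were divided by a Foxp3 UMI, the mark of regulatory T cells. This division is rough, since a regulatory cell whose Foxp3 RNA was not captured falls on the Foxp3-negative side. How many did was not tested. In the anti-PD-1 library a Foxp3 UMI was also found in 8.54% of CD8-gated cells and 31.2% of cells in neither gate. CD4-gated Foxp3-negative cells, called CD4 conventional-gated cells below, numbered 947, 90, 39 and 55 in the anti-PD-1, ATT-I, combination and vehicle libraries, with median depths of 5744, 5567, 12613 and 7673 UMIs. Foxp3-positive CD4-gated cells numbered 393, 18, 26 and 19 in the same order, and CD8-gated cells 9071, 108, 122 and 51. In the CD4 conventional-gated cells, Cd3e was detected in 92.0% (anti-PD-1), 94.4% (ATT-I), 100% (combination) and 89.1% (vehicle) of cells. Cd8a was also detected in 19.9% of them in the anti-PD-1 library, 1.11% in the ATT-I library, 10.3% in the combination library and 14.5% in the vehicle library. Of the markers of other cells in this gate, fibroblast markers summed to 0.233, 0.743, 0.0434 and 0 UMIs per 10000 in the anti-PD-1, ATT-I, combination and vehicle libraries, epithelial markers to 0.111, 0.654, 0 and 0.169, and myeloid markers to 0.639, 0.0482, 0.235 and 0.164. The list of NK and innate lymphoid markers, which holds Id2 and Il7r, genes that T cells also transcribe, summed to 13.7, 10.5, 12.1 and 14.7. 1 cell barcode occurred in 2 libraries.

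Penk had the highest level of the 6 genes in CD4 conventional-gated cells of the ATT-I, combination and vehicle libraries and came after Ccl1 in the anti-PD-1 library. It averaged 8.72 UMIs per 10000 in the anti-PD-1 library (8.52 to 8.92), 3.84 in the ATT-I library (3.44 to 4.27), 10.4 in the combination library (9.56 to 11.3) and 15.2 in the vehicle library (14.3 to 16.1). The vehicle library was therefore highest and the ATT-I library lowest, and no 2 of the 4 counting intervals overlapped. A Penk UMI was found in 36.0%, 28.9%, 38.5% and 47.3% of these cells in the same order of arms, with overlapping intervals for the ATT-I library (19.8% to 39.4%) and the vehicle library (33.7% to 61.2%). Among the 341 anti-PD-1 cells with Penk the median was 9 UMIs, 164 cells held at least 10 and 64 held 1. A few cells carried much of the sum in the small libraries. The cell with the most Penk UMIs gave 3.59% of them in the anti-PD-1 library, 42.5% in the ATT-I library, 50.4% in the combination library and 30.7% in the vehicle library. Without that cell of each library the levels were 8.44, 3.27, 6.37 and 13.2 UMIs per 10000, so that the anti-PD-1 and combination libraries changed places.

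Ccl1 averaged 9.08 UMIs per 10000 in the anti-PD-1 library, 2.42 in the ATT-I library, 4.16 in the combination library and 8.12 in the vehicle library. It was as abundant as Penk in the anti-PD-1 library but in fewer cells, 29.7% with a UMI, with a mean of 30.6 UMIs per 10000 in the cells that had any. The ATT-I library was again lowest, and the intervals of the anti-PD-1 library (8.87 to 9.30) and the vehicle library (7.58 to 8.69) were close but did not overlap. One cell gave 29.8% of the vehicle UMIs, and without it the vehicle level was 5.12.

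Il1r2 averaged 1.84, 0.735, 2.31 and 1.04 UMIs per 10000 in the anti-PD-1, ATT-I, combination and vehicle libraries. The anti-PD-1 interval (1.74 to 1.93) ended just below that of the combination library (1.95 to 2.71), and the ATT-I interval (0.570 to 0.934) overlapped that of the vehicle library (0.846 to 1.27). Igfbp7 averaged 1.41 UMIs per 10000 in the anti-PD-1 library, 0.677 in the ATT-I library, 1.17 in the combination library and 0.708 in the vehicle library. The combination interval overlapped those of the other 3 libraries, and the anti-PD-1 interval (1.33 to 1.49) overlapped neither that of the ATT-I library (0.488 to 0.915) nor that of the vehicle library (0.529 to 0.929). Gpm6b lay between 0.579 in the ATT-I library and 1.06 in the combination library, with 0.969 in the anti-PD-1 library and 0.906 in the vehicle library. Bace2 was the lowest member in each library, with 0.345 UMIs per 10000 in the anti-PD-1 library, 0.422 in the ATT-I library, 0.533 in the combination library and 0.417 in the vehicle library, and all 4 intervals overlapped. Bace2 never passed 5 UMIs in a cell of this gate, whereas Il1r2 reached 57 and Ccl1 330.

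**Figure D1:**
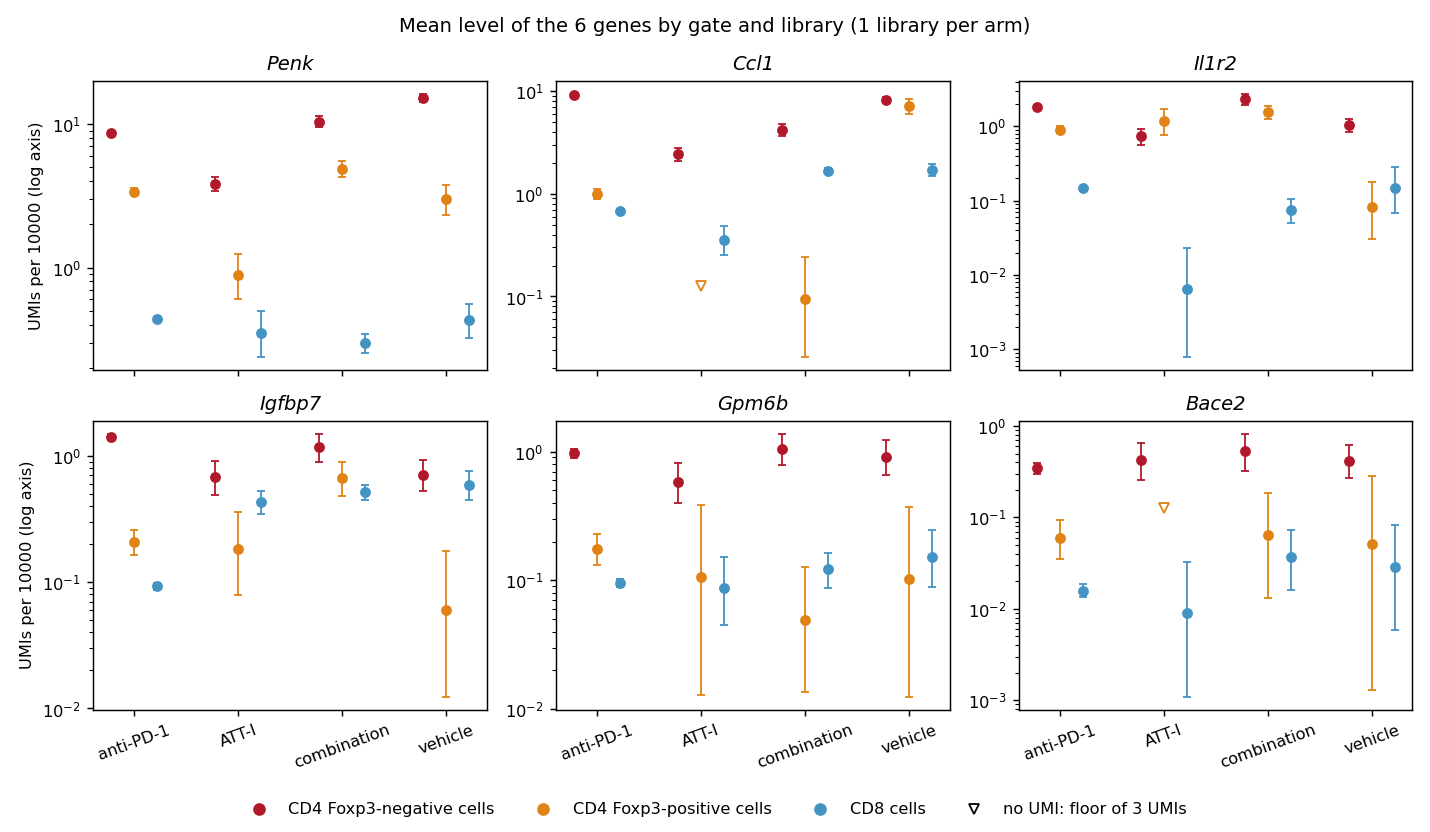
Mean level (UMIs per 10000, log axis) of each gene in CD4 conventional-gated (CD4 Foxp3-negative), CD4 Foxp3-positive and CD8-gated cells of the anti-PD-1, ATT-I, combination and vehicle libraries, with exact 95% Poisson intervals; open triangles mark the level of 3 UMIs where none was counted. In the anti-PD-1 library all 6 genes are highest in the CD4 conventional-gated cells, while Il1r2 in the ATT-I library is 0.735 there and 1.17 in Foxp3-positive cells.

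Between arms, few members differed by 2-fold or more, and those that did stand among many genes that did. The share of all genes past 2-fold is given with each comparison, over 9339 to 10759 genes that had a UMI in 2% or more of the cells on one side. Against the vehicle library, none of the 6 was past 2-fold in the anti-PD-1 library, where 6.57% of all genes were higher and 20.6% lower and the median gene lay at a log2 ratio of -0.28. Without the cell with the most UMIs of each gene in each library, Il1r2 at 1.49 and Igfbp7 at 1.28 were past 2-fold, and without cycling cells Ccl1 was as well (2.80). In the full gate Igfbp7 at 0.99 (0.59 to 1.42), Il1r2 at 0.82 (0.53 to 1.13) and Penk at -0.80 (-0.89 to -0.71) came nearest. In the ATT-I library 2 of 6 were lower than in the vehicle library, Penk with a log2 ratio of -1.99 (-2.17 to -1.81) and Ccl1 with -1.75 (-1.98 to -1.52), and none was higher. Of all genes 22.6% were lower there and 6.19% higher, with a median of -0.35. Without the cells that held 3 or more UMIs of other cell types' markers, which left 83 ATT-I and 53 vehicle cells, the ratios were as large, -1.98 for Penk and -1.69 for Ccl1. Without cycling cells the Ccl1 ratio turned to 1.12 while the Penk ratio was -2.32, with 66 ATT-I cells and 31 vehicle cells left.

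In the combination library only Il1r2 of the 6 was past 2-fold against vehicle, with a log2 ratio of 1.15 (0.77 to 1.53), and none was lower, where 8.57% of all genes were higher and 13.3% lower. With UMIs summed over cells before division the Il1r2 ratio was 0.54. Against the anti-PD-1 library, Ccl1 was lower in the combination library with a log2 ratio of -1.13 (-1.32 to -0.94) and the other 5 were within 2-fold, where 15.7% of all genes were higher and 8.35% lower. Without cells holding other cell types' markers the Ccl1 ratio was -0.94, and over all deposited cells, with no gate, it was 0.41. Against the ATT-I library, Penk at 1.44 (1.24 to 1.64) and Il1r2 at 1.65 (1.23 to 2.09) were higher in the combination library and none was lower, where 18.3% of all genes were higher and 8.27% lower. Without the cell with the most UMIs of each gene in each library, the Penk ratio was 0.96 and the Il1r2 ratio 2.01. The median gene lay at -0.10 in combination over vehicle, at 0.16 in combination over anti-PD-1 and at 0.25 in combination over ATT-I. Among 6 genes, the 0 to 2 past 2-fold cannot be told apart from these shares of all genes, and the counts moved with the gate and the normalization.

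**Figure D2:**
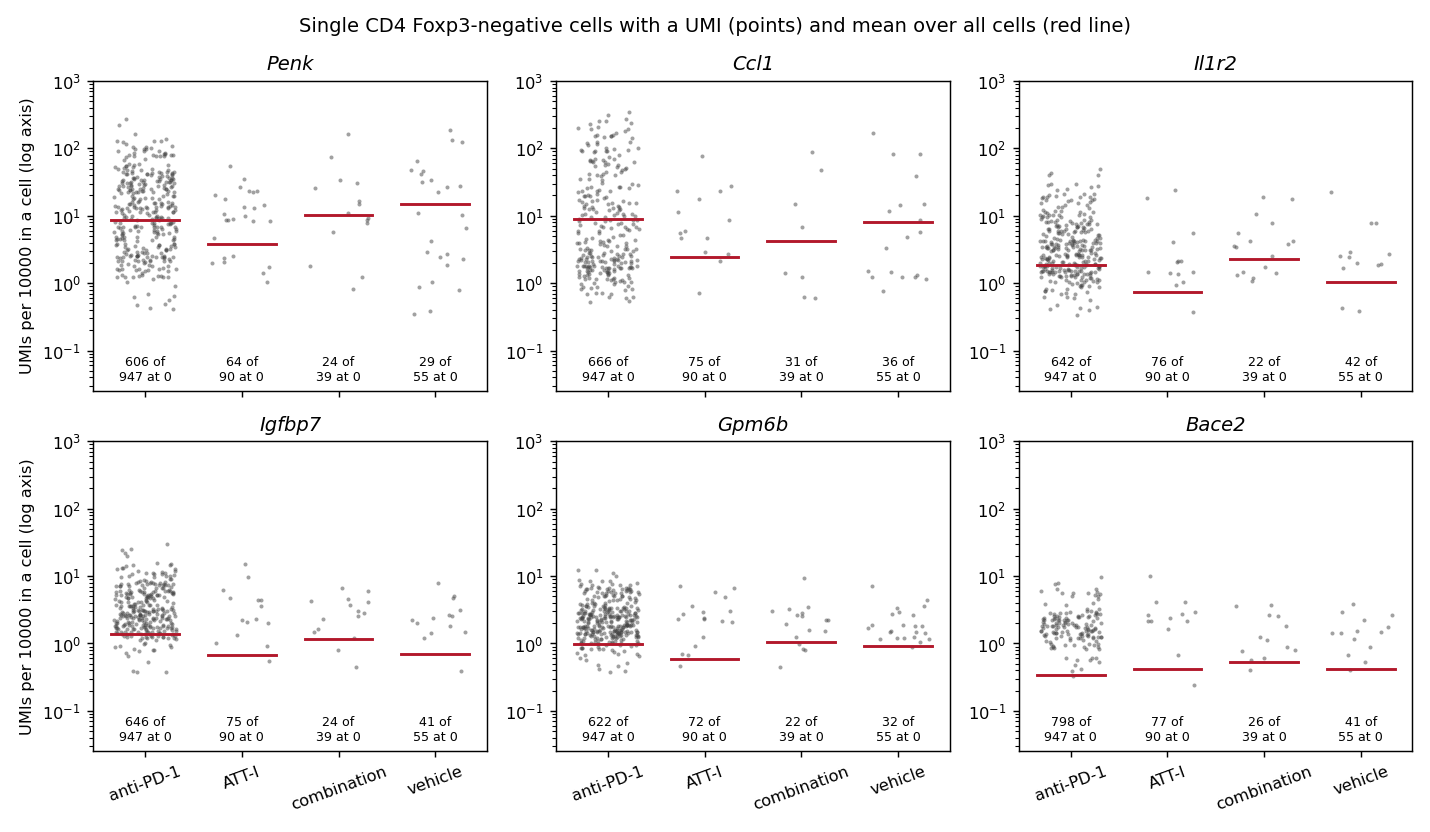
Each point is 1 CD4 conventional-gated cell with at least 1 UMI of the gene, as UMIs per 10000 of that cell (log axis), by library; red lines are means over all cells of the gate, and the number of cells at 0 is written under each library. Penk and Ccl1 reach 2 orders of magnitude above the lowest detected cells in the anti-PD-1 library, and the means of the smaller libraries rest on few points.

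Within the anti-PD-1 library, the one with enough cells in each gate, all 6 genes were at least 2-fold higher in CD4 conventional-gated cells than in both other T cell gates, as the rule that chose them would have it. Of 10064 genes 6.13% were that much higher than in CD8-gated cells and 3.17% lower, and of 10145 genes 4.42% were that much higher than in Foxp3-positive cells and 4.66% lower. Penk averaged 8.72 UMIs per 10000 in CD4 conventional-gated, 3.38 in Foxp3-positive and 0.440 in CD8-gated cells. Ccl1 averaged 9.08, 0.991 and 0.671 in the same order of gates, Il1r2 1.84, 0.908 and 0.148, Igfbp7 1.41, 0.207 and 0.0929, Gpm6b 0.969, 0.175 and 0.0948, and Bace2 0.345, 0.0588 and 0.0159. The log2 ratio over CD8-gated cells ran from 3.35 for Gpm6b to 4.44 for Bace2. Over Foxp3-positive cells it ran from 1.02 for Il1r2 to 3.20 for Ccl1, and Il1r2 fell below 2-fold with a stricter gate that allowed no Cd8a or Cd8b1 UMI (0.59) and without cycling cells (0.99). The order of the 3 gates was the same for all 6 genes. The CD4 conventional-gated cells were 7.54% of the library's cells and held 47.4% of its Penk UMIs, 51.5% of Bace2, 47.2% of Igfbp7, 44.0% of Ccl1, 37.5% of Gpm6b and 36.0% of Il1r2 UMIs.

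The members differed in how far they extended into Foxp3-positive cells. In the anti-PD-1 library Penk was detected in 36.0% (32.9% to 39.2%) of CD4 conventional-gated cells, against 32.3% (27.7% to 37.2%) of Foxp3-positive cells, and Il1r2 in 32.2% (29.2% to 35.3%) against 33.1% (28.4% to 38.0%). The intervals of these shares overlapped, while those of the levels did not. Of the cells with Penk, 164 of 341 CD4 conventional-gated cells held 10 or more UMIs, against 28 of 127 Foxp3-positive cells. Ccl1 was found in 13.2%, Gpm6b in 9.41%, Igfbp7 in 7.89% and Bace2 in 3.05% of Foxp3-positive cells.

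The shares of cells with a UMI are given beside those of CD8-gated cells. How much of the signal in either gate was free RNA in the droplets was not tested, and some CD8-gated cells may transcribe these genes. Penk was found in 36.0% of CD4 conventional-gated anti-PD-1 cells at a median depth of 5744 UMIs, against 10.0% of the 9071 CD8-gated cells at 7861. The other shares were 29.7% against 9.90% for Ccl1, 32.2% against 7.92% for Il1r2, 31.8% against 5.59% for Igfbp7, 34.3% against 6.07% for Gpm6b and 15.7% against 1.11% for Bace2. After each cell was thinned to 3000 UMIs, leaving out 53 CD4 conventional-gated and 204 CD8-gated cells, the shares were 31.9% against 4.87% for Penk, 23.6% against 4.50% for Ccl1, 22.5% against 3.38% for Il1r2, 23.3% against 2.44% for Igfbp7, 20.6% against 2.47% for Gpm6b and 8.39% against 0.440% for Bace2. The ratio of Ccl1 to Penk UMIs differed between gates, and the part of free RNA in it was not tested. Per Penk UMI there were 0.995 Ccl1 UMIs in CD4 conventional-gated, 0.298 in Foxp3-positive and 1.75 in CD8-gated cells. Most CD8-gated cells with Penk, 640 of 910, held 1 UMI, and 78 held at least 10. A single CD8-gated cell held 890 of the 6981 Ccl1 UMIs of its gate.

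In the other libraries the same order against CD8-gated cells was seen for most genes. All but Igfbp7 were at least 2-fold higher in CD4 conventional-gated cells in each of the ATT-I, combination and vehicle libraries. Igfbp7 averaged 0.677 UMIs per 10000 in CD4 conventional-gated and 0.431 in CD8-gated cells of the ATT-I library (log2 ratio 0.65, 0.09 to 1.20), and 0.708 and 0.587 in the vehicle library (0.27, -0.30 to 0.84). In CD8-gated cells of these libraries Igfbp7 was thus above the 0.0929 of the anti-PD-1 library, and the cells were deeper, with medians of 9255.5 UMIs (ATT-I) and 23901 (vehicle) against 7861. Ccl1 in CD8-gated cells rested on 1 cell in both remaining libraries, 603 of 692 UMIs in the combination library and 204 of 206 in the vehicle library. Bace2 had 2 UMIs in CD8-gated ATT-I cells and 3 in CD8-gated vehicle cells, so its log2 ratios were 5.55 (3.51 to 8.69) and 3.88 (2.16 to 6.25), and Il1r2 had 2 in CD8-gated ATT-I cells (6.82, 4.91 to 9.90). Without the top Ccl1 cell the CD8-gated level was 0.306 in the combination library and 0.0246 in the vehicle library.

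Against Foxp3-positive cells, which numbered 18 to 26 in these 3 libraries, Penk was higher in CD4 conventional-gated cells in each, with log2 ratios of 2.12 (ATT-I), 1.10 (combination) and 2.35 (vehicle). With 18 and 19 Foxp3-positive cells the ATT-I and vehicle gates fell below the 20 asked of a comparison and are given as values only. In the combination library Il1r2, with 2.31 against 1.55 UMIs per 10000 (0.58, 0.20 to 0.95), and Igfbp7, with 1.17 against 0.666 (0.82, 0.24 to 1.40), were higher as well but short of 2-fold. In the ATT-I library Il1r2 stood at 0.735 against 1.17 (-0.67, -1.35 to 0.04). The vehicle Foxp3-positive gate, at 19 cells, held 6 Il1r2 UMIs. No Ccl1 and no Bace2 UMI was counted in the 18 Foxp3-positive cells of the ATT-I library. Against a floor of 3 UMIs over that gate the CD4 conventional-gated level was 19.0-fold higher for Ccl1 and 3.33-fold higher for Bace2. The lower limits of the log2 ratios were 3.94 for Ccl1 and 1.30 for Bace2. In the vehicle library Ccl1 stood at 8.12 against 7.09 (0.20, -0.07 to 0.47), and 134 of the 137 Ccl1 UMIs of Foxp3-positive cells were in 1 cell.

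In single cells the 6 genes were detected together. Of the 947 CD4 conventional-gated anti-PD-1 cells, 340 held none of the 6, 179 held 1, 98 held 2, 119 held 3, 111 held 4, 74 held 5 and 26 held all 6. Had the genes been detected independently within 10 bins of cells of like depth, 187.7 cells would have held none, 224.1 would have held 2 and 3.10 all 6. There were thus more cells at both ends and fewer in between. At least 3 of the genes were found in 34.8% of these cells (31.8% to 38.0%), and in 8.14% of Foxp3-positive (5.64% to 11.3%) and 2.32% of CD8-gated cells (2.02% to 2.65%) of the same library. At 3000 UMIs per cell these shares were 23.5%, 2.12% and 0.643%. By count, 330 CD4 conventional-gated cells held 3 or more, against 284.2 given by independence within depth bins. In Foxp3-positive cells there were 32 against 24.7, and in CD8-gated cells 210 against 62.6. In CD4 conventional-gated cells of the other arms, 3 or more genes were found in 18.9% (11.4% to 28.5%) in the ATT-I library, 35.9% (21.2% to 52.8%) in the combination library and 32.7% (20.7% to 46.7%) in the vehicle library. With too few cells for depth bins, independence gives 7.35, 14.8 and 17.1 such cells, where 17, 14 and 18 were counted. At 3000 UMIs per cell the 4 arms were at 23.5% (anti-PD-1), 9.30% (ATT-I), 23.1% (combination) and 13.0% (vehicle). The anti-PD-1 cells with 3 or more genes had a median depth of 7368.5 UMIs, against 4582 in those with none.

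**Figure D3:**
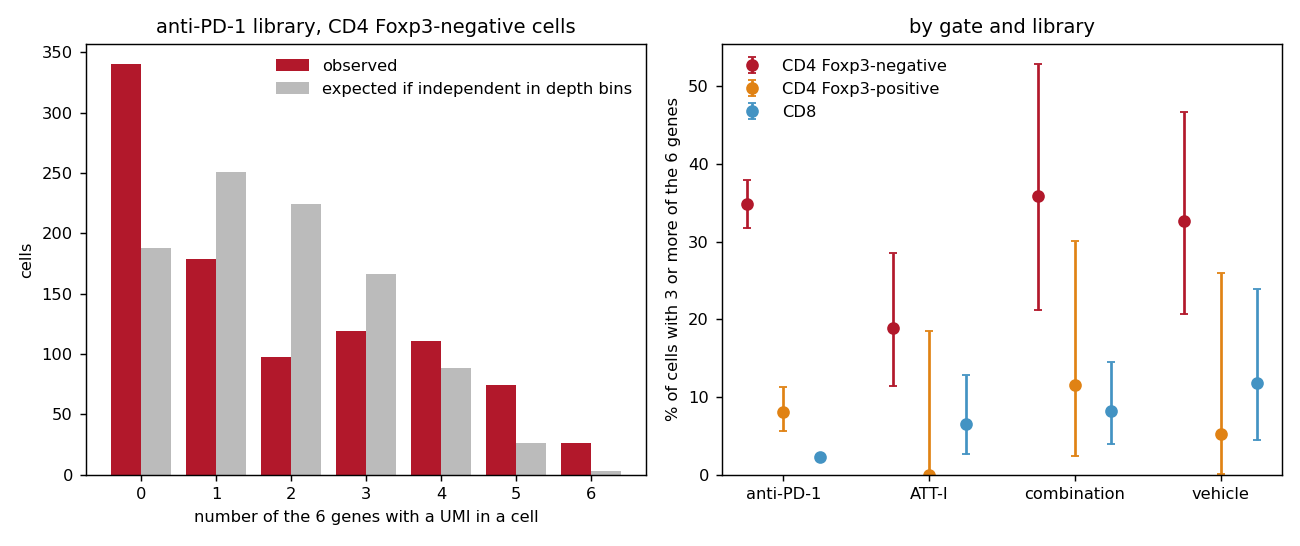
Left, number of CD4 conventional-gated anti-PD-1 cells by how many of the 6 genes had a UMI (observed, red; expected from independent detection within depth bins, grey); right, share of cells with 3 or more of the genes by gate and library, with exact 95% Clopper-Pearson intervals. The observed counts exceed the expected ones at 0 and from 4 upward, with 26 cells against 3.10 at all 6.

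All 15 pairs of the genes were found together in more of these cells than independence within depth bins gives, by 1.33 (Il1r2 with Gpm6b) to 1.70 times (Penk with Bace2), with a median of 1.42. The most a pair can reach is set by how common its genes are, and the 4 highest ratios were all of pairs with Bace2, the rarest of the 6. None of the 15 reached 2, the size set for a call. With Penk, 0.0104% of 9631 genes reached 2 and 59.3% were above 1, with a median gene at 1.02, and 5 of the 5 other members were above 1. Penk and Bace2 were found together in 106 cells against 62.4 expected, so that 71.1% of the Bace2-positive cells held Penk. Penk and Ccl1 shared 171 cells against 120.7 expected, and Ccl1 and Igfbp7 172 against 111.9. The pairs were above 1 for 13 of 15 in the ATT-I library, 14 of 15 in the combination library and 15 of 15 in the vehicle library. There 8, 1 and 0 pairs reached 2 in the same order. Cells were too few for depth bins in these libraries, so the depth of the cells also enters the ratios. The share of all gene pairs was not computed, and the counts are given as values only. In CD8-gated anti-PD-1 cells the 15 ratios ran from 1.44 to 5.88, with a median of 2.18, and 12 reached 2. Foxp3-positive cells of that library had ratios from 0.905 to 4.99, with a median of 1.36, and 5 reached 2. The share of all gene pairs was not computed in these 2 gates either.

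**Figure D4:**
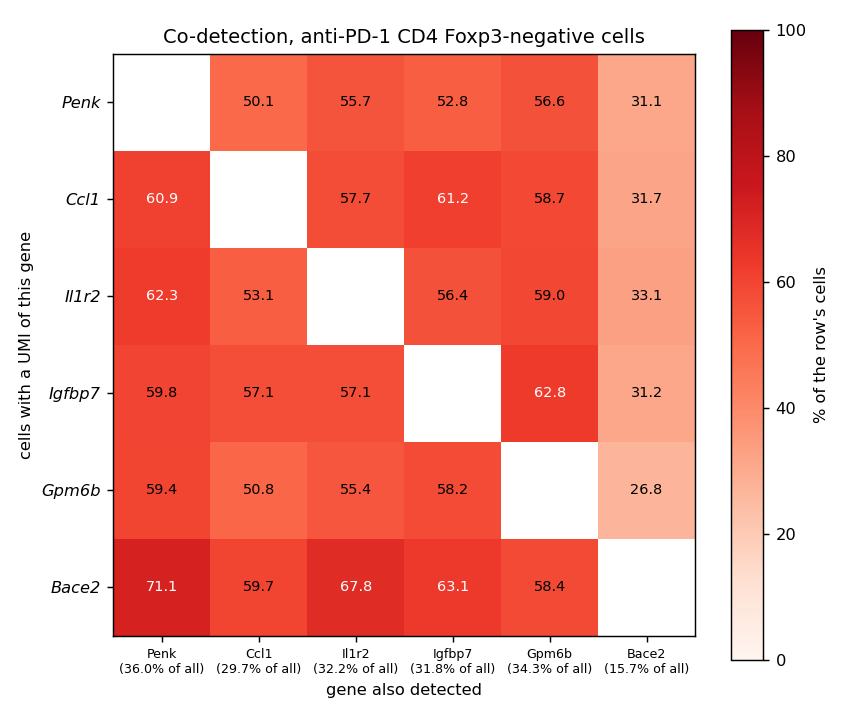
Percent of the CD4 conventional-gated anti-PD-1 cells with a UMI of the row's gene that also held a UMI of the column's gene; the share of all 947 cells with each gene stands under its name. Of Bace2-positive cells 71.1% held Penk, against 36.0% of all cells of the gate.

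The genes whose level followed Penk most closely over these 947 cells were looked up by Pearson's r of ln(1 + UMIs per 10000), which the cells' shared library and their depth also enter. Il1r2 ranked at place 1 of 9631 genes with r = 0.43, Ccl1 at place 3 with 0.37, Igfbp7 at place 6 with 0.36, Bace2 at place 8 with 0.34 and Gpm6b at place 13 with 0.32. All of these were chosen with Penk. By the ratio of co-detection with Penk, which leaves out how many UMIs a cell held, the same genes stood further back, with Bace2 at place 12, Ccl1 at 135, Il1r2 at 170, Gpm6b at 181 and Igfbp7 at 192. The genes most like it outside the 6 were Nrgn (0.40), which encodes the calmodulin-binding protein neurogranin, Camk2n1 (0.37), an inhibitor of calmodulin-dependent kinase II, the trefoil peptide gene Tff1 (0.37), Tnfsf11 (0.36), which encodes the cytokine RANKL, and Rbpj (0.34), the DNA-binding partner of Notch. Ostf1, Tgfb1, Vamp8, Ms4a4c and Cst3 followed at 0.31 to 0.33. Outside the 6, Nrgn was also the gene most like Ccl1 (0.48) and Igfbp7 (0.45), and Tnfsf11 was among the 3 most like genes for Ccl1, Il1r2, Igfbp7 and Gpm6b. Ostf1 led for Il1r2 (0.44) and Gpm6b (0.37), and Camk2n1 for Bace2 (0.31). All these are moderate correlations in sparse counts and are given as a description.

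The 341 anti-PD-1 CD4 conventional-gated cells with a Penk UMI were then set against the 606 without, within the same depth bins, since their median depths were 6851 and 5043.5 UMIs. Of 10063 genes with a UMI in at least 2% of either side, 4.2% were at least 2-fold higher and 2.39% at least 2-fold lower in Penk-positive cells, and the median gene lay at a log2 ratio of 0.07. Of the same genes 58.3% had a ratio above 0, the share beside which each count of signs below stands. All 5 other members were among the higher genes, with 0.665 against 0.155 UMIs per 10000 for Bace2 (log2 ratio 2.10, 1.66 to 2.56), 3.44 against 1.33 for Il1r2 (1.38), 17.3 against 6.94 for Ccl1 (1.32), 1.55 against 0.732 for Gpm6b (1.09) and 2.46 against 1.17 for Igfbp7 (1.07). These follow from the choice of genes detected together. A 2-UMI gate asked for 2 Cd4 UMIs and called a cell Foxp3-positive only from 2 Foxp3 UMIs. Cells with a single Foxp3 UMI then counted as Foxp3-negative. With that gate Igfbp7 at 0.89 and Gpm6b at 0.88 were below 2-fold.

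Of 7 naive and memory genes, those of resting and recirculating T cells, 3 were at least 2-fold lower in the cells with Penk and none higher, with a median log2 ratio of -0.92 and 2 of 7 above 0. S1pr1, the receptor for exit from tissue, stood at 0.211 against 0.596 UMIs per 10000 (-1.50), Klf2, a transcription factor that controls S1pr1, at 1.54 against 3.53 (-1.19) and the transcription factor gene Tcf7 at 0.339 against 0.756 (-1.16). Lef1, a transcription factor gene related to Tcf7, stood at -0.92 and Il7r, the interleukin-7 receptor gene, at -0.53. Ccr7, a chemokine receptor of naive cells, went the other way with 1.20 against 0.676 (0.83), and the transcription factor gene Bach2 stood at 0.27 (-0.58 to 1.11).

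The working description of these cells as activated was checked with 18 genes of T cell activation. Only 1 of 18 was 2-fold higher, Egr2, a transcription factor induced by T cell receptor signals, with 0.297 against 0.0863 UMIs per 10000 (1.78, 1.18 to 2.42), beside the 4.2% of all genes. A positive sign was seen for 15 of 18, beside the 58.3% of all genes, at a median of 0.20. Tnfsf11 (0.97, 0.82 to 1.12) and Tnfsf8, which encodes CD30 ligand (0.87, 0.74 to 1.01), came next. Tnfrsf8, which encodes CD30, stood at 0.84 on 8 UMIs against 6 (-0.88 to 2.65). Cd44 (0.27), Il2ra (0.20), Tnfrsf4 (0.07) and Icos (-0.08) were close to 0, and Cd69 stood at -0.58. The list's most widely detected gene, Tnfrsf18, had a UMI in 96.5% of Penk-positive and 88.1% of Penk-negative cells, Il2ra in 37.8% and 24.3%, and Egr2 in 13.2% and 3.80%. These shares are not matched for the depth of the cells.

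By the 2-fold rule, effector genes differed by single members, while most of the measured genes of each helper list had a positive sign. Positive were 7 of 8 type 1, 3 of 4 type 2, 3 of 3 type 17 and 4 of 5 follicular genes. All genes stood at 58.3%, and the list medians were 0.50, 0.18, 0.45 and 0.31 in the same order. Ifng was higher in Penk-positive cells at 7.83 against 3.56 UMIs per 10000 (1.14), the 1 of 8 type 1 helper genes past 2-fold. Cxcr3, at -0.66, was the 1 of 8 below 0. Il2, at 0.43, counted as positive though found in 2.64% of Penk-positive against 5.61% of Penk-negative cells. Of the type 2 list Il1rl1 was below 0, at -0.39. Csf2, the cytokine GM-CSF, was at 3.98 against 1.20 (1.73) and the 1 of 4 measured genes of the type 2 helper list past 2-fold, with Gata3, the defining factor of that lineage, at 0.07. Bcl6 (1.24) was the 1 of 5 measured follicular helper genes past 2-fold, beside Pdcd1 at 0.70 and Il21 at -0.12. None of the 3 measured type 17 genes was, with Rora at 0.77. None of the 9 inhibitory receptor genes passed 2-fold, and all 9 had a positive sign, beside the 58.3% of all genes, at a median of 0.59. The highest were Cd200r1 (0.89), Lag3 (0.79), Pdcd1 (0.70) and Cd200 (0.63), and Ctla4 was nearest to 0 (0.01).

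Of 9 cytotoxic genes 1, Fasl, had a positive sign (0.43), beside the 58.3% of all genes, at a median of -0.45, and Gzma passed 2-fold with 0.392 against 1.22 UMIs per 10000 (-1.63), while Gzmk (-0.91), Gzmb (-0.82) and Ccl5 (-0.73) did not. Of the 10 measured genes of the regulatory T cell list, Il10 (-1.77), Lrrc32 (-1.43) and Itgae (-1.08) were at least 2-fold lower, in cells that by definition had no Foxp3 UMI. The other members went both ways, with Ccr8 at 0.55, Ikzf4 at 0.42, Areg at 0.27 and Ikzf2 at -0.48, and 6 of 10 were above 0 at a median of 0.10. Il10 rested on 8 Penk-positive cells, Lrrc32 on 8 and Itgae on 7, and the interval of Itgae was -2.23 to -0.03. None of the 12 proliferation genes was past 2-fold, with a median of -0.03. No T cell receptor variable gene was found in more than the 4.69% of Penk-positive cells that held Trbv3, against 2.81% of Penk-negative cells. These shares depend on how often such genes are captured, and the clonal make-up of the cells was not tested.

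**Figure D5:**
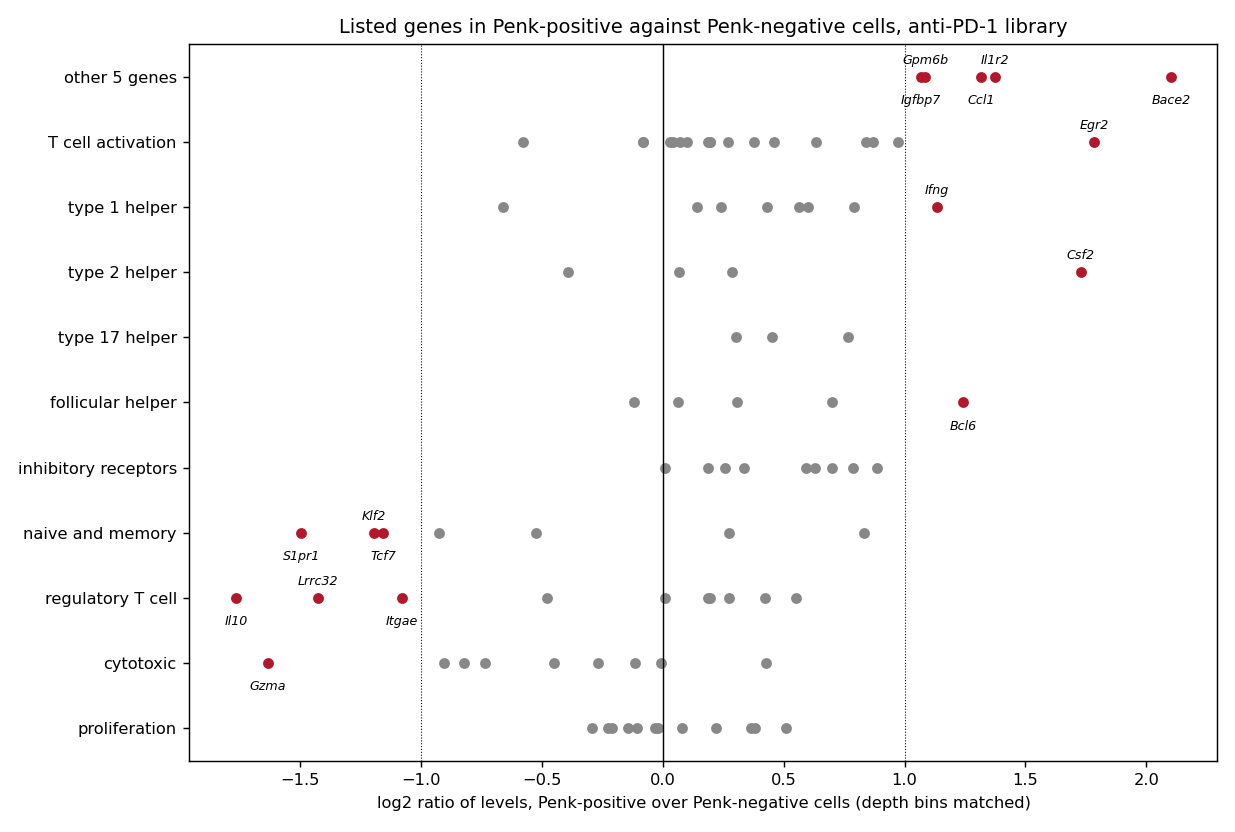
Log2 ratio of mean level in Penk-positive over Penk-negative CD4 conventional-gated cells of the anti-PD-1 library, matched on depth, for the genes of each list with a UMI in at least 2% of either side (points); red, named points are past 2-fold (dotted lines). The other 5 genes lie at 1.07 to 2.10, and S1pr1, Klf2 and Tcf7 at -1.16 to -1.50.

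The genes with the highest ratios were low and rested on few cells. Prss2 had 108 UMIs in 11 Penk-positive cells and 1 UMI in Penk-negative cells (log2 ratio 6.78, 4.27 to 12.09), Krt17 56 and 1 (6.21, 3.67 to 11.54), Cd109 10 and 1 (4.09, 1.27 to 9.53), Gm26870 103 and 33 (3.26) and Ltbp3 14 and 2 (3.24, 1.11 to 6.42). At the other end, Aldh5a1 had 1 UMI in Penk-positive and 15 in Penk-negative cells (-4.02, -9.42 to -1.32), followed by 2810405F17Rik (-3.29, -8.69 to -0.57), Tha1 (-3.28, -8.68 to -0.56), Atp8a2 (-3.00, -6.15 to -0.94) and Klra1 (-2.97, -4.34 to -1.84). Of the markers of other cells, the 6 myeloid markers in the table summed to 0.937 UMIs per 10000 in Penk-positive and 0.533 in Penk-negative cells, with C1qa past 2-fold (1.04), and their part in the differences was not tested. The 2 B cell markers summed to 0.0172 against 0.0208, the 5 dendritic cell markers to 0.0777 against 0.0753 and the 7 fibroblast markers to 0.253 against 0.164. Epcam (-1.63), Mmp9 (-1.15), Klrb1c (-2.46) and Tyrobp (-1.28) were lower in Penk-positive cells, and Col1a1 (1.02) higher, on 6 to 118 UMIs a side. The 9 NK and innate lymphoid markers, Klrb1c and Tyrobp among them, summed to 15.2 against 13.0 UMIs per 10000, of which Id2, which T cells also transcribe, made 11.5 against 7.94, while the natural killer receptor gene Ncr1 stood at 0.0437 against 0.0430. Among the 903 cells left without those that held 3 or more UMIs of myeloid, neutrophil, fibroblast, endothelial, epithelial or B cell markers, all 5 other members were still past 2-fold.

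The partners of the 6 gene products ranged widely in these cells. Of the opioid system, Oprm1, the mu receptor gene, had 1 UMI in 947 CD4 conventional-gated anti-PD-1 cells, and none in those of the other arms. Ogfr, the opioid growth factor receptor that binds Met-enkephalin, was found in 34.0% of these cells in the anti-PD-1, 33.3% in the ATT-I, 46.2% in the combination and 36.4% in the vehicle library, at 0.666, 0.709, 0.561 and 0.539 UMIs per 10000. Its level in CD8-gated cells was near that, at 0.662, 0.526, 0.464 and 0.594 in the same order, and it stood at -0.25 (-0.54 to 0.03) between Penk-positive and Penk-negative cells. Furin, a protease of the secretory pathway, was higher in CD4 conventional-gated than in CD8-gated cells of each library, with 1.97 against 0.278 UMIs per 10000 in the anti-PD-1 library, 6.48 against 0.362 in the ATT-I library, 6.29 against 0.327 in the combination library and 5.84 against 0.465 in the vehicle library. Pcsk1, the prohormone convertase that cuts enkephalin precursors in neuroendocrine cells, was at 0.0841, 0, 0.0190 and 0 UMIs per 10000 in CD4 conventional-gated cells of the anti-PD-1, ATT-I, combination and vehicle libraries. It was at 0.413, 0.524, 0.385 and 0.309 in Foxp3-positive cells and at 0.0194, 0.0336, 0.00263 and 0.0326 in CD8-gated cells in the same order. Outside the anti-PD-1 library the CD4 conventional-gated and CD8-gated values of Pcsk1 rest on 0 to 2 UMIs. Furin in Foxp3-positive cells was at 0.621, 0.826, 1.41 and 0.566. Between Penk-positive and Penk-negative cells none of the 4 measured processing genes was past 2-fold, with Furin at 0.68 and Pcsk1 at 0.58.

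Ccr8, the receptor of Ccl1, averaged 0.200 UMIs per 10000 in CD4 conventional-gated anti-PD-1 cells, 0.311 in ATT-I, 0.782 in combination and 0.351 in vehicle cells. In Foxp3-positive cells it averaged 0.259, 0.382, 0.307 and 1.07 in the same order of arms. It was at 0.55 between Penk-positive and Penk-negative cells. Of the related chemokines, Ccl8 was at least 2-fold higher in Penk-positive cells (3.20, 73 UMIs in 11 cells against 13 UMIs in 12 cells). Ccl17 was lower (-2.64, 14 UMIs in 9 cells against 74 UMIs in 9 cells). Il1r1, the signalling interleukin-1 receptor, had 1 UMI in the 947 anti-PD-1 cells, 0 in the 90 ATT-I cells, 2 in the 39 combination cells and 1 in the 55 vehicle cells, while Il1r2 itself had 1454, 67, 148 and 99. Il18r1, an interleukin-18 receptor chain of the same family, was found in 44.1% of the anti-PD-1 cells at 1.39 UMIs per 10000. Il1rap, the shared accessory chain, was lower in Penk-positive cells (-1.33, 10 UMIs against 24). Among the insulin-like growth factor genes Igfbp4 was lower (-1.08), though found in 7.62% of Penk-positive against 6.77% of Penk-negative cells. Igf1r stood at -0.74 on 15 UMIs against 31. Bace1 had 20 UMIs in the 947 CD4 conventional-gated anti-PD-1 cells, while the gamma-secretase subunit gene Psenen was found in 77.3% of them, Aplp2, a relative of the amyloid precursor gene, in 35.9% and the alpha-secretase gene Adam10 in 29.1%, and 0 of the 10 other measured genes of the secretase list passed 2-fold.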

How the data were processed

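The series holds 4 libraries of single-cell RNA from pooled MC38 tumours, 1 for each arm. Per the submitters' processing notes, reads were processed with Cell Ranger and Seurat on the mm10 build; versions are not given in the sources used here. The deposited values were, as tested on the table, the natural log of 1 plus UMIs per 10000, lowered by a constant of 0.248 in the anti-PD-1, 0.153 in the ATT-I, 0.225 in the combination and 0.247 in the vehicle library and set to 0 below it. Undoing this gave whole UMIs for 100% of the values above 0, within 0.02 UMI. Single UMIs were lost to the 0 in 37 anti-PD-1, 0 ATT-I, 37 combination and 21 vehicle cells of high depth. The table had 13518 genes and 13213 cells. No count model was run, since each arm has 1 library. No doublet caller was run.

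The members and the gene lists were chosen with earlier results of these data known. A gene was compared when it had a UMI in at least 2% of the cells of either side. A fold of at least 2 was a rule of size, not a test. A group without a UMI took a floor of 3 UMIs over its cells. Comparisons asked for 20 cells in both groups. Co-detection and the Penk comparison used 10 bins of equal cell number by depth, and smaller gates had 1 bin. Named genes were the 6 members, up to 4 genes with the largest folds of each list, the 10 genes most like Penk and the 3 most like each other member, and the 5 highest and 5 lowest in the Penk comparison; those named beside them as lineage or pathway genes were chosen after their values were seen. Scripts ran in Python 3.11.15 with numpy 2.4.6, scipy 1.17.1 and pandas 2.3.3, and were tested on simulated data. Alternatives covered the gates, thinning, the normalization, the fold, the filter, cells with markers of other types, cycling cells and depth bins. Sequences came from GENCODE M21 and RefSeq. Some listed genes are not reported here and are left out of their lists.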

Additional observations from a re-analysis of the deposited data

How the results depend on the processing

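Each count of the 6 genes past 2-fold was recomputed under alternatives; leaving out cells with lost single UMIs and leaving out the cell with the most UMIs were chosen after seeing the data. Of 300 single log2 ratios between arms, 82 moved beyond their counting interval and 2 reversed; of 108 between gates 28 moved, of 50 in the Penk comparison 18, of 8 in co-detection 0. Reversed were Ccl1 in ATT-I over vehicle (1.12 without cycling cells) and in combination over anti-PD-1 (0.41 with all deposited cells). In the latter set 1 CD8-gated cell held 603 of the 931 combination Ccl1 UMIs. The share of all genes past the fold was not computed under these alternatives, so no count below is a result particular to the 6 genes. Between arms the number of the 6 genes past the fold changed as follows, and the cause was not tested. In anti-PD-1 over vehicle, 1 was higher with UMIs pooled over cells and with the 2-UMI gate, which raised the Cd4 and Foxp3 cuts together. There were 2 higher when thinned to 3000 UMIs, at 1.5-fold and without the top cell, and 3 without cycling cells. Lower was 1 with the strict gate and at 1.5-fold, and 5 with all deposited cells. The setting with all deposited cells mixes the gates, whose shares differed between libraries. CD4 conventional-gated cells made 7.54% of all anti-PD-1, 30.3% of all ATT-I, 19.6% of all combination and 35.5% of all vehicle cells. In ATT-I over vehicle, 2 were higher and 1 lower without cycling cells. In combination over vehicle, 2 were higher when thinned and at 1.5-fold, 4 without cycling cells, and 0 with pooled UMIs and with all cells; 2 were lower with the strict gate and all cells, and 1 with the 2-UMI gate, pooled UMIs, 1.5-fold and without the top cell. In combination over anti-PD-1, 1 was higher without cycling cells and at 1.5-fold and 4 with all cells; 0 were lower without cells holding other cell types' markers and with all cells. In combination over ATT-I, 1 was higher and 1 lower with the strict gate, and 4 were higher with the 2-UMI gate and without cycling cells, 5 at 1.5-fold, 1 without the top cell and 0 with all cells. Against Penk-negative cells, 3 of 5 genes were higher with the 2-UMI gate. Of the 15 pairs, 3 reached 2 when thinned and 2 without depth bins. Counts between gates in the anti-PD-1 library stayed within 1.5 times. With 39 to 90 cells in the smaller libraries, depth and cell number limit every arm comparison. No paired analysis was possible because each arm has 1 library.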
